A study of Mus musculus with 18 samples.

Results

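The neocortex grows out of the dorsal telencephalon, the upper wall of the early forebrain. The 8 wildtype embryos described here were taken at E13.5 (counted in embryonic days) from a series of 18 mouse embryos in which the others, 6 heterozygous and 4 homozygous, carried an Insm1 knockout. Each embryo gave 1 Affymetrix whole-transcript array of total RNA. The wildtype arrays were chosen by the genotype in their titles, and the genes by probe set: of 23238 probe sets, 16661 had identifiers of 6700000 or above, and 14939 of these had exactly 1 gene symbol. Taking the probe set with the highest wildtype mean for each symbol left 14807 genes. All values are the authors' log2 signals, in which 1 unit stands for a 2-fold difference. The labels give neither litter, strain nor sex, and do not say whether the embryos came from separate litters, so the SD measures the spread between these 8 samples. No group was compared with another.

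At this age the cortical wall is built of apical progenitors that divide at the ventricle, basal progenitors that divide away from it, and the first postmitotic neurons, among them Cajal-Retzius neurons at the surface. The medial edge of the cortex carries the cortical hem, a source of Wnt and Bmp signals, and next to it the choroid plexus, which secretes cerebrospinal fluid. The ventral telencephalon, which makes GABAergic interneurons, adjoins the dorsal part laterally. A dissected piece can therefore hold different amounts of hem, choroid plexus, ventral tissue, meninges, vessels and blood, and in bulk RNA fewer cells of a type and less RNA per cell cannot be told apart.

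The arrays were alike. Pearson's r between embryos over all probe sets with 1 symbol lay between 0.994 and 0.996, and no pair of arrays held the same values. The scale of an array, taken as its 75th percentile, was lowest in embryos 6 (4.75) and 7 (4.76) and highest in embryos 3 (4.96) and 4 (4.95). Embryo 7 had the lowest value of the 8 in 32.9% of the genes above the floor defined below and embryo 6 in 27.4%, where an even split gives 12.5%. After each array was centred on its median these shares were 15.2% and 14.0%. The first principal component held 33.1% of the variance between embryos, with embryos 6 and 7 at one end and embryos 3 and 4 at the other.

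A probe set has some signal even without its transcript. Olfactory receptor genes, which are used in the sensory neurons of the nose, served to measure it: the 717 such genes had a median wildtype signal of 0.37, and the 95th percentile of their means, 0.92, was taken as the floor. Of all 14807 genes, 9898 had a wildtype mean above the floor, which is 66.8%. In 9242 genes every embryo lay above the floor and in 3821 none did. In the remaining 1744 embryos lay on both sides. The genes nearest the floor were Flt1 (0.92), just above it, and Tas2r138 (0.92), just below. By level, 2027 genes lay between the floor and 2, 2715 between 2 and 4, 3358 between 4 and 6, 1594 between 6 and 8, and 204 above 8.

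**Figure D1:**
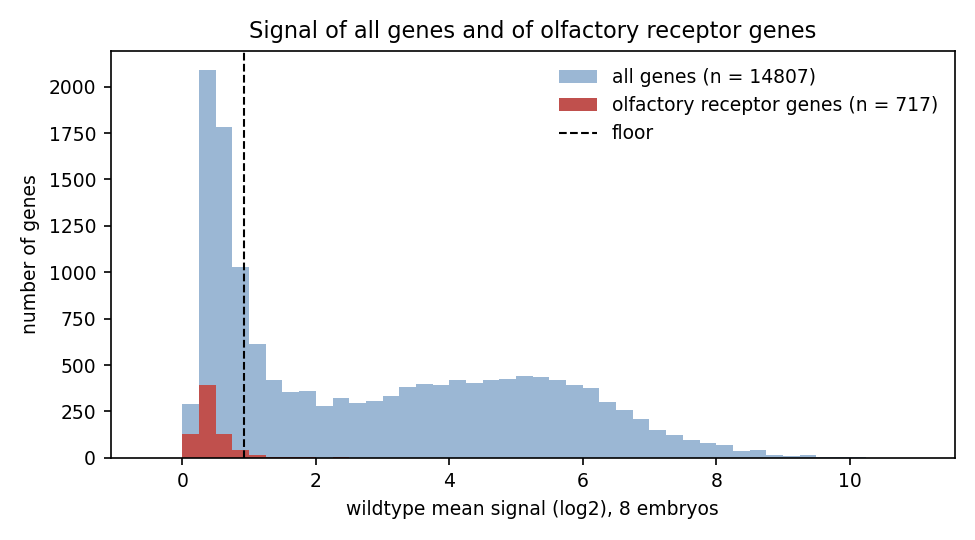
Number of genes by wildtype mean signal (log2, mean of 8 embryos) for all 14807 genes and for the 717 olfactory receptor genes, with the floor at 0.92 as a dashed line. The olfactory receptor genes gather at the low end, and 9898 of all genes lie above the floor.

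Signals of different genes are only roughly comparable, because probes differ in how well they bind. For the 85 genes with more than 1 probe set where both of those with the highest means lay above the floor, the means differed by a median of 1.07, and in 26 of them by 2 or more. Genes that every cell uses could also lie low: the ribosomal protein gene Rpl31 had a mean of 0.65, the cytochrome oxidase subunit gene Cox7b of 0.54 and the glycolytic enzyme gene Pkm of 1.09. A signal at the floor thus gives no proof that a transcript was missing, and ranks between neighbouring genes carry little weight.

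The 30 genes with the highest signal ran from 10.75 down to 9.20, and the next gene lay at 9.15. Beta-actin (Actb) had a lowest, median and highest signal of 10.63, 10.71 and 10.99 in the 8 embryos. The beta-tubulin genes Tubb5 and Tubb2b averaged 10.06 ± 0.07 and 9.63 ± 0.14 (SD, n = 8). Dpysl2, which binds tubulin in growing axons, averaged 9.75, and the intermediate filament gene Vim, a marker of radial glia, 9.48.

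Genes of the G1 phase of the cell cycle stood at the same height. Cyclin D2 (Ccnd2), which starts the cycle together with Cdk4 and is known for its strong expression in cortical progenitors, averaged 10.26 ± 0.09 and Cdk4 9.88 ± 0.05 (SD, n = 8). The linker histone gene H1f5 averaged 9.82, and Ranbp1, a partner of the Ran GTPase, 9.40. The translation factor genes Eef2 and Eif4g2 averaged 10.17 and 9.57, and the poly(A)-binding protein gene Pabpc1 9.31. The RNA-binding protein genes Hnrnph1, Ddx39b, Myef2, Hnrnpu, Cnbp and Serbp1 averaged between 9.22 and 9.78. A second probe set of Myef2 averaged 0.33, which is below the floor.

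Signalling and metabolic genes made up most of the others. These were Ywhae (9.75), a 14-3-3 protein, Gnb1 (9.49), a G protein subunit, Ppp2ca (9.49), the catalytic subunit of protein phosphatase 2A, Cacybp (9.48), Ctnnb1 (9.30), the beta-catenin of Wnt signalling and cell junctions, the ATP synthase subunit gene Atp5b (9.36), the glycolytic enzyme gene Tpi1 (9.30) and the fatty acid desaturase gene Scd2 (9.20). The corepressor gene Trim28 averaged 9.28. The LIM homeobox gene Lhx2, a selector of cortical identity, was the 1 tissue-specific transcription factor among the 30, with a lowest, median and highest signal of 9.32, 9.35 and 9.48. AY036118, a transcript to which no role is assigned here, averaged 9.37 ± 0.45 (SD, n = 8). It was the 1 gene of the 30 with an SD over 0.2.

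Most promoters of genes with a signal above 8 (150 of 170, by the measure given below) were rich in CpG, the dinucleotide that clusters in CpG islands. Eef2, Tubb5 and Lhx2 are shown as examples of strong signal, followed by Alb, the gene of serum albumin, and the vomeronasal receptor gene Vmn1r183, which lay below the floor at 0.49 and 0.79. Each line gives the 100 bases before the RefSeq transcription start in GRCm38.p6, with CpG in capitals.
Eef2, chr10:81176531-81176630, plus strand: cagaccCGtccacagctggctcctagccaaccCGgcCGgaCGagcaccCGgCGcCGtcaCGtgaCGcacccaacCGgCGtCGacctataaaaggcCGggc
Tubb5, chr17:35838302-35838401, minus strand: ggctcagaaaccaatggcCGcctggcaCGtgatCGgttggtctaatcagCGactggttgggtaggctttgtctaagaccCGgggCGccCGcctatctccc
Lhx2, chr2:38339181-38339280, plus strand: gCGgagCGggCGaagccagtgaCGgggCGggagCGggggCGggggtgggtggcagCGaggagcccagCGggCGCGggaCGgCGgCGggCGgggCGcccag
Alb, chr5:90460770-90460869, plus strand: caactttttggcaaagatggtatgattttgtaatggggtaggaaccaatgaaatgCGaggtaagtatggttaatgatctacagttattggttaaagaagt
Vmn1r183, chr7:24054674-24054773, plus strand: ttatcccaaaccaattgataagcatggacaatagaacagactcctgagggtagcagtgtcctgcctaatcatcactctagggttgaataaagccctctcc
The stretches held 13 CpG in Eef2, 7 in Tubb5 and 16 in Lhx2, against 1 in Alb and 0 in Vmn1r183. As picked examples they do not measure how genes of high and low signal differ.

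Over 250 bases before to 50 after the start, a promoter was called CpG-rich when the observed number of CpG was at least 0.6 of that expected from its C and G content. The share was 74.8% of 2212 promoters of genes between 2 and 4, 82.4% of 2761 between 4 and 6, 85.7% of 1308 between 6 and 8 and 88.2% of 170 above 8. Of all 27025 genes with a RefSeq promoter it was 36.5%. Over all measured genes, of which 79.9% had a promoter, it was 56.3%. For genes below the floor and between the floor and 2, promoters could be matched for only 78.0% and 76.5%. These and the share for all measured genes are under the 80% set as a minimum, so the check is void for them. The motif TATAAA on either strand in the 60 bases before the start was found in 1.67% of promoters between 2 and 4, 0.978% between 4 and 6, 1.07% between 6 and 8 and 5.88% above 8, and in 4.21% of all. A match is a description of letters and not of a site in use.

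**Figure D2:**
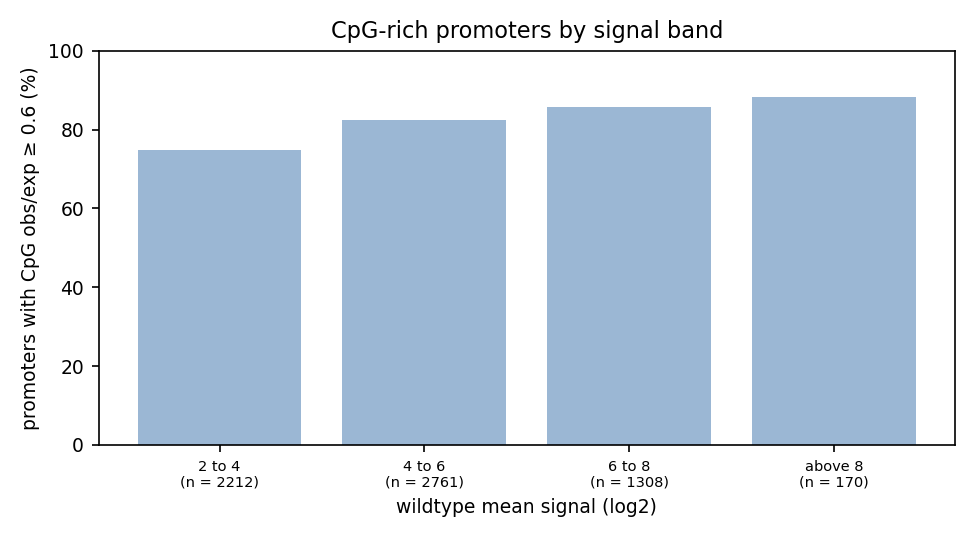
Share of promoters (%) called CpG-rich (observed over expected CpG of at least 0.6) by band of the wildtype mean signal (log2), with the number of promoters under each bar. The share is 74.8% between 2 and 4 and 88.2% above 8, and bands with too few matched promoters are not drawn.

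Of the list of cortical patterning factors 14 of 15 measured genes lay above the floor, with a median of 5.53 against 2.40 over all genes. Each list count above the floor, here and below, is to be read against the 66.8% of all genes that lay above it. After Lhx2 came Fgfr3 (7.55), a fibroblast growth factor receptor, and Nr2f1 (7.07), which sets the caudal areas, then Emx2 (6.47), Lmo4 (6.18), Pax6 (6.18), Lmo3 (5.75), Lef1 (5.53), Nr2f2 (5.48) and Lhx9 (5.36). Emx2 and Pax6 are known for opposing gradients across the cortex. The SD of these 10 genes lay between 0.05 and 0.16.

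Progenitors and neurons both gave strong signals. All 19 measured apical progenitor genes were above the floor, with a median of 6.47. The stem cell factor Sox2 averaged 7.63 ± 0.19 (SD, n = 8) and N-cadherin (Cdh2), which holds the apical junctions together, 8.48 ± 0.08 (SD, n = 8), whereas Veph1 lay at 1.20. All 15 basal progenitor genes were above the floor too, with a median of 6.12. Neurog2, a proneural factor, averaged 7.08, Eomes, the T-box factor that marks basal progenitors, 6.93, the corepressor gene Rcor2 6.62, the Notch ligand gene Dll1 6.53 and Btg2 6.32. Insm1 had a lowest, median and highest signal of 4.84, 5.36 and 5.77. With an SD of 0.34 it was the most variable gene of the basal progenitor list.

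Of 25 cortical neuron genes all lay above the floor, with a median of 6.92. The highest were the transcription factor genes Nfib (8.61) and Sox4 (8.40), then Dcx (8.39), a microtubule protein of migrating neurons, Map2 (8.04) and Fezf2 (7.89), which specifies deep layer neurons. The lowest were the neurofilament genes Nefl and Nefm at 1.71 and 2.83 and the synaptic gene Snap25 at 3.81. Tbr1, a deep layer factor, averaged 7.48 ± 0.11 (SD, n = 8) and Bcl11b 5.87 ± 0.16 (SD, n = 8). Of the 8 upper layer genes 7 were above the floor, with a median of 3.74. They ranged from Pou3f3 (5.91) and Cux1 (5.73), which progenitors use as well, to Rorb (1.33), Cartpt (1.42) and, below the floor, Rasgrf2 (0.39).

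Cajal-Retzius genes had a median of 2.35, with all 11 above the floor. Reln, the glycoprotein that these neurons secrete, averaged 6.56 ± 0.27 (SD, n = 8), and Zic1, shared with the medial wall, 6.11. Trp73 (2.54), Lhx5 (2.14), Ebf1 (1.89) and Lhx1 (1.73) lay far lower.

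**Figure D3:**
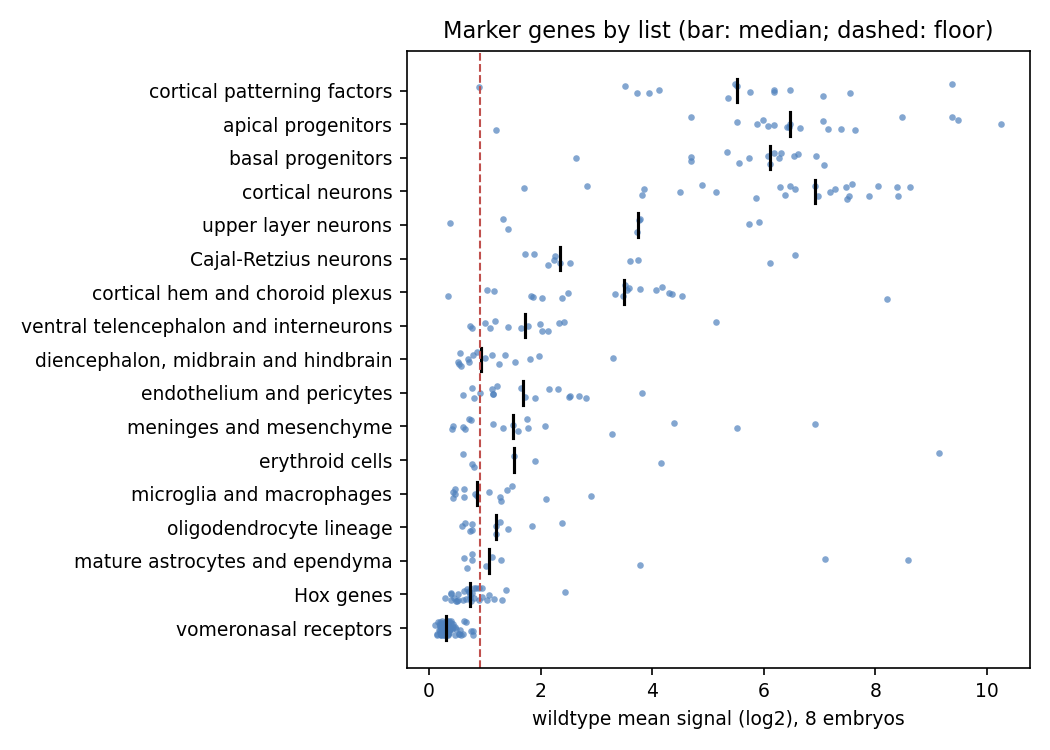
Wildtype mean signal (log2, mean of 8 embryos) of each measured gene, as a point, by marker list, with the list median as a bar and the floor of 0.92 as a dashed line. The apical progenitor, basal progenitor, cortical neuron and patterning lists have medians between 5.53 and 6.92. Upper layer and Cajal-Retzius neuron genes have medians of 3.74 and 2.35, and Hox and vomeronasal receptor genes of 0.74 and 0.30.

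Of 14 ventral telencephalon and interneuron genes 12 lay above the floor, with a median of 1.72. Most stayed under 2.5, with Dlx1 at 2.41, Dlx2 at 2.33, Sp9 at 2.13 and Dlx5 at 2.03. Gsx1 (1.01) lay just above the floor, and Isl1 (0.77) and Gsx2 (0.73) lay below it. Sst, the neuropeptide somatostatin of some interneurons, stood apart from the rest of that list at 5.15 ± 0.23 (SD, n = 8). The list for diencephalon, midbrain and hindbrain had 8 of 16 genes above the floor and a median of 0.93. Its highest was Tcf7l2 (3.30), followed by Otp (1.97), Fgf8 (1.80), Gbx2 (1.54) and Irx3 (1.37).

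Genes of blood and vessels ranged from high to low signals. The embryonic beta-globin gene Hbb-y averaged 9.13 ± 0.13 (SD, n = 8) and the embryonic alpha-globin gene Hba-x 4.16. The other red cell genes were low, with Slc4a1 at 1.90, Alas2 at 1.53 and Klf1 below the floor at 0.62. Endothelial and pericyte genes had a median of 1.68, with 15 of 18 above the floor and Kdr, the receptor of VEGF, highest at 3.81. Cldn5, a tight junction gene of the barrier, lay below it at 0.81. In the meninges and mesenchyme list 11 of 17 (64.7%) were above the floor, near the 66.8% of all genes. Fn1 (6.92), Crabp2 (5.53) and Prrx1 (4.39) were high, but the collagen genes Col1a2 (1.51) and Col3a1 (1.15) were not. Microglial genes had a median of 0.85 with 7 of 15 above the floor, led by the lysosomal gene Cd68 (2.90), and Ptprc, the pan-leukocyte antigen CD45, lay at 0.43.

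Genes of later glia gave low signals. In the oligodendrocyte lineage list 6 of 11 genes lay above the floor, none higher than Cnp at 2.38. Olig1 and Olig2, factors of the precursors, averaged 1.84 and 1.41, and the myelin gene Mag was below the floor at 0.60. In the list for mature astrocytes and ependyma, 6 of 10 lay above the floor. Aldoc (8.59) and the connexin gene Gja1 (7.10), which radial glia express too, were high, as was to a lesser degree Foxj1 (3.78), the factor of motile cilia. The water channel gene Aqp4 lay below the floor at 0.77.

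Genes of other organs gave the low end. None of 13 retina and hair cell genes lay above the floor and none of 81 vomeronasal receptor genes, while 5.88% of 34 taste receptor genes and 7.41% of 54 keratin and keratin-associated genes did. Of 9 pancreas genes only Cela1 (1.39) was above it, and of 10 liver genes only Apoa2 (1.54) and Ttr, which the choroid plexus makes too. Striated muscle genes had 4 of 11 above the floor, none over 1.79 (Acta1). Hox genes, which pattern the trunk and hindbrain and are silent in the forebrain, had 8 of 32 above the floor. Of these Hoxd11 was highest, with a lowest, median and highest signal of 2.26, 2.42 and 2.72. With the floor at the 99th percentile of the olfactory receptors (1.42), the counts above it were 1 of 32 Hox genes, 3 of 15 microglial, 2 of 11 oligodendrocyte, 3 of 10 astrocyte and 4 of 16 diencephalon to hindbrain genes. With it at the 90th (0.72), 18 Hox genes, 16 keratin genes and 7 muscle genes lay above it. Among olfactory receptors, 36 lay above the floor by its construction, up to Olfr545 at 2.27 and Olfr1410 at 2.27.

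The spread between embryos was small for most genes. The median SD over the 8 embryos was 0.14 among the 9898 genes above the floor, and 62 of them (0.626%) had an SD of at least 0.5. Above a level of 2 the spread was smaller at higher levels, with a median SD of 0.16 between 2 and 4 and of 0.09 above 8. The most even genes were Tspan14, a tetraspanin (5.94 ± 0.02), Arhgef4 (2.35 ± 0.02) and Trerf1 (3.02 ± 0.02; SD, n = 8 each). Id4, an inhibitor of basic helix-loop-helix factors that is strong in cortical progenitors, averaged 8.73 and varied between 8.68 and 8.78.

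**Figure D4:**
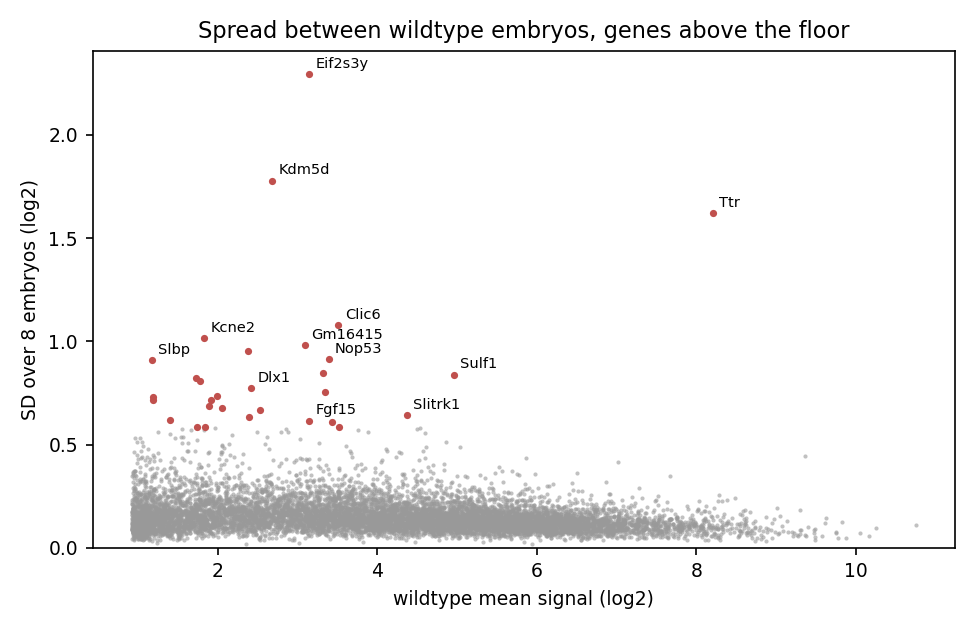
SD over the 8 wildtype embryos (log2) against the wildtype mean signal (log2) for the 9898 genes above the floor, each a point, with the 30 highest SDs in red and some named. Eif2s3y, Kdm5d and Ttr have SDs of 2.29, 1.78 and 1.62, far above the median of 0.14, and Ttr is the 1 gene above a signal of 8 with an SD of at least 0.5.

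The 30 most variable genes had SDs from 2.29 to 0.58. A pair of Y-linked genes led them. Eif2s3y, a translation initiation factor subunit encoded on the Y chromosome, lay between 4.70 and 4.97 in embryos 1, 2, 5, 6 and 7 and between 0.27 and 0.47 in embryos 3, 4 and 8. Kdm5d, a Y-linked histone demethylase, lay between 3.78 and 4.51 in the same 5 embryos and between 0.48 and 0.62 in the other 3. The low levels are under the floor. The wildtype group is thus a mix of 5 embryos with Y-linked signal and 3 without, and the labels give no sex.

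In the X-linked genes of the list the order was the reverse. Kdm5c, the X-linked homologue of Kdm5d, lay at 6.82 to 6.85 in embryos 3, 4 and 8 and at 6.26 to 6.47 in the others, and Kdm6a at 5.16 to 5.35 against 4.47 to 4.76. Eif2s3x, the homologue of Eif2s3y, lay at 7.90 to 8.12 in embryos 3, 4 and 8 and at 7.19 to 7.70 in the others. In these 3 genes and in Ddx3x (9.16 to 9.22 against 8.81 to 9.15) embryos 3, 4 and 8 were the 3 highest. The arrays were not centred for this order. Embryos 3, 4 and 8 were the highest of the 8 in 19.8%, 26.5% and 9.20% of all genes above the floor, where an even split gives 12.5%. The probe set of Sry did not follow the Y-linked pair. Its signal of 0.57 to 1.60 was highest in embryo 8.

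Choroid plexus genes came next among the variable genes. Ttr, the carrier of thyroxine and the main product of the choroid plexus, had 8.71, 7.82, 5.07, 9.57, 6.60, 9.19, 9.57 and 9.15 in embryos 1 to 8. The lowest and highest embryos differed 22.6-fold. Clic6, a chloride channel protein of secretory epithelia, had 3.34, 2.86, 2.02, 4.74, 2.16, 4.05, 4.63 and 4.29, and Kcne2, a potassium channel subunit of the choroid plexus, had 1.91, 1.25, 0.27, 2.91, 0.72, 2.30, 3.15 and 2.13. In all 3 genes embryo 3 was lowest, embryo 5 next and embryo 2 after it, and embryos 4 and 7 were the 2 highest. Clic6 and Kcne2 both lie on chromosome 16 with 5 protein-coding genes between them in GRCm38.p6.

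Sulf1, a heparan sulfate sulfatase, lay at 3.93 to 4.41 in embryos 1, 2, 3 and 5 and at 5.51 to 5.97 in embryos 4, 6, 7 and 8. The ion channel gene Trpm3 had a lowest, median and highest signal of 0.95, 2.05 and 2.85, the cilium gene Cfap126 of 0.65, 1.83 and 3.26 and the homeobox gene Msx1, a target of Bmp signals in the dorsal midline, of 2.55, 3.03 and 4.75. Of the 30 most variable genes, 7 had embryos 3 and 5 among their 3 lowest: Ttr, Clic6, Kcne2, Sulf1, Trpm3, Cfap126 and Msx1. Over all genes above the floor the share with that order was 4.53%. The order was taken from these same data, so this count is a description and no test. The arrays were not centred for it, and embryo 3 was the lowest of the 8 in 4.29% of the genes above the floor, where an even split gives 12.5%. Centring the arrays, quantile normalization or leaving out any 1 embryo moved the SD of none of these 7 genes by more than 1.5 times. Whether the pieces differed in the amount of choroid plexus was not tested. The promoters of 3 of these genes are shown as above, with CpG in capitals.
Kcne2, chr16:92292289-92292388, plus strand: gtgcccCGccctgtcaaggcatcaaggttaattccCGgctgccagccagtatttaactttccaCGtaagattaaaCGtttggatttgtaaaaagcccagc
Msx1, chr5:37824586-37824685, minus strand: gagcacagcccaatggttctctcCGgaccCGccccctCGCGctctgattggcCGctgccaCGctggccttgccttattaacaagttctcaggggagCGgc
Trpm3, chr19:22138946-22139045, plus strand: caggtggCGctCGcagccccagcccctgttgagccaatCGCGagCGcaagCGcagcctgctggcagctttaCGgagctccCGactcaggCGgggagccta
The stretch of Kcne2 held 4 CpG, that of Msx1 7 and that of Trpm3 9, and by the measure above Msx1 and Trpm3 were CpG-rich and Kcne2 was not (observed over expected 0.79, 0.63 and 0.44).

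**Figure D5:**
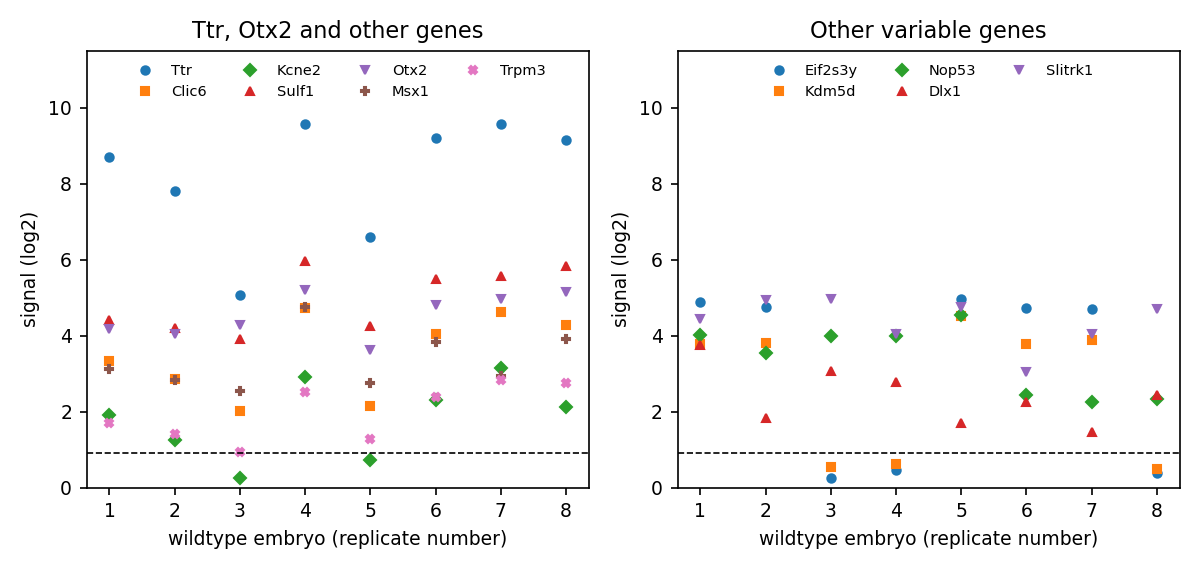
Signal (log2) of variable genes in each wildtype embryo, by replicate number, with the floor of 0.92 as a dashed line. On the left, Ttr, Clic6 and Kcne2 are lowest in embryos 3 and 5 (Ttr at 5.07 and 6.60), and on the right Eif2s3y and Kdm5d lie under the floor in embryos 3, 4 and 8.

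In the list for the hem and choroid plexus, 19 of 20 genes lay above the floor, and the median SD was 0.32 against 0.14 for all genes above it. An SD of at least 0.5 was found in 5 genes: Ttr, Clic6, Kcne2, Msx1 and Otx2. Among all genes above the floor the share was 0.626%. The lists were chosen with earlier results of these data known, so these values are a description and no test. Wnt8b, a Wnt ligand of the hem, ranged over 1.53-fold and the Wnt agonist genes Rspo3 and Rspo2 over 1.60-fold and 1.90-fold. Wnt2b and Lmx1a, further hem genes, ranged over 2.05-fold and 2.03-fold, and Msx1 over 4.59-fold. The anti-ageing gene Kl, made by the mature choroid plexus, was below the floor at 0.34. Otx2, a homeobox factor that the choroid plexus needs, had 3.62 in embryo 5 and 5.20 in embryo 4. Embryo 3, the lowest in Ttr, Clic6 and Kcne2, had only rank 4 from the lowest in Otx2. Folr1, a further gene of this list, ranged over 2.03-fold.

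Dlx1, a homeobox factor of ventral progenitors and interneurons, was the 1 ventral gene among the 30. It had 3.76, 1.83, 3.08, 2.78, 1.70, 2.27, 1.46 and 2.44 in embryos 1 to 8. Its neighbour on chromosome 2, Dlx2, had 2.87, 2.05, 2.56, 2.44, 1.96, 2.43, 2.08 and 2.25. In both genes embryos 1, 3 and 4 were the 3 highest, as they were for Dlx5 (2.54, 2.47 and 2.68, against 1.52 to 1.94 in the others). Gad2, an enzyme of GABA synthesis, was highest in embryos 1 (1.83) and 3 (1.82). Sst, the brightest gene of the list, was highest in embryo 1 (5.64) too, but its second lowest value was in embryo 3 (4.94). Embryos 1, 3 and 4 were also the 3 arrays with the highest 75th percentile (4.91, 4.96 and 4.95). In the test described next, Dlx1 against that percentile had r = 0.60 (exact permutation p = 0.116, adjusted p = 0.366, n = 8). Gad2 had r = 0.47 (exact permutation p = 0.232, adjusted p = 0.410), and Dlx2 and Dlx5 were not set against it.

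Whether markers of 1 cell type or response rose and fell together over the 8 embryos was tested for 15 pairs of genes, and the first gene of each pair was set against the 75th percentile of its array, which makes 30 relations. Only Dlx1 with Dlx2 passed after Benjamini-Hochberg adjustment (Pearson's r = 0.95, exact two-sided permutation p = 0.00062, adjusted p = 0.0186, n = 8). Spearman's rho was 0.90 (exact permutation p = 0.00456, adjusted p = 0.137), and without the 2 embryos farthest from the median of Dlx1 r was 0.92. The call ended with rank correlation, after centring (r = 0.90, exact permutation adjusted p = 0.0538) and after quantile normalization (r = 0.89, adjusted p = 0.113). It also ended without embryo 1, 3, 4 or 5 (exact permutation adjusted p = 0.304, 0.0565, 0.0595 and 0.0655), while r stayed between 0.91 and 0.98 in all 8 repeats that left out 1 embryo.

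Ttr with Otx2 had r = 0.70 (rho 0.74, exact permutation p = 0.0483 and 0.0458, adjusted p = 0.235 and 0.275, n = 8) and did not pass, and r was 0.88 without embryos 3 and 5. Gad2 with Dlx5 had r = 0.70 (rho 0.74, exact permutation p = 0.0549 and 0.0458, adjusted p = 0.235 and 0.275), with r = 0.41 without embryos 1 and 3. The other 12 pairs had adjusted p of 0.366 or more by exact permutation. Eomes with Insm1, for example, had r = 0.56 (rho 0.55, exact permutation p = 0.139 and 0.171, adjusted p = 0.366 for both) and r = 0.37 without embryos 7 and 8. No gene passed against the 75th percentile of the array, where the smallest exact permutation adjusted p was 0.235, although Pax6 passed without embryo 2 (r = 0.96, exact permutation adjusted p = 0.0119), and the labels name no batch within which the relations could be repeated.

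The 30 most variable genes were mostly dim, Kcne2, Cfap126 and Trpm3 among them. Of the 30, 12 had a mean under 2 and 27 under 4. The RNA processing gene Slbp, which binds histone mRNA, lay between 0.02 and 2.68, the ribosomal protein gene Rps24 between 0.21 and 2.22, the olfactory receptor gene Olfr11 between 0.08 and 2.09, Cdk10 between 0.65 and 2.22 and the signal peptidase gene Spcs1 between 0.75 and 3.06. In these 5 genes the embryos lay on both sides of the floor, as they did in Kcne2 and Cfap126. Nop53, a ribosome assembly factor, had 2.44, 2.25 and 2.33 in embryos 6, 7 and 8 and 3.56 to 4.54 in the others. Nfyc, a subunit of the factor that binds CCAAT boxes, lay between 0.96 and 4.00. A second probe set of Nfyc averaged 0.69, below the floor, with an SD of 0.33 against 0.96. Over the embryos it had r = -0.23 with the first.

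A few brighter genes owed their place to 1 embryo. Fgf15, a fibroblast growth factor of the embryonic brain, had 4.51 in embryo 3 and 2.58 to 3.44 in the others, and its SD was 0.62 with that embryo and 0.29 without it. The synapse adhesion gene Slitrk1 had 3.06 in embryo 6 and a median of 4.56, with an SD of 0.64 and 0.39 without it. The SD of Gm16415 was 0.98, and 0.33 without embryo 5, and that of the ribosomal protein gene Rpl23 0.58, and 0.27 without embryo 7. The melanocortin receptor gene Mc4r had 2.34 to 2.79 in embryos 1 to 4 and 0.90 to 1.47 in embryos 5 to 8, with no value in between.

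In all, 4 genes had embryos at separate levels, with a gap of at least 1 that exceeded the range on either side and at least 2 embryos on each side: Eif2s3y (gap 4.23), Kdm5d (3.16), Nop53 (1.12) and Sulf1 (1.10). The low embryos were 3, 4 and 8 in the Y-linked genes, 6, 7 and 8 in Nop53, and 1, 2, 3 and 5 in Sulf1, so the Y-linked split did not return in the other 2. Without embryos 6 and 7, which had the lowest array scale, 24 of the 30 most variable genes remained, and 3 of these 4 genes. The loss of Nop53 was fixed by the rule, since only embryo 8 was then left at its low level and at least 2 were needed.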

How the data were processed

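The authors deposited log2 signals, 1 per array and transcript-level probe set, made with RMA and Affymetrix Expression Console 1.1, per the submitters' processing notes. The build and probe annotation behind them are not stated. As a check of the log base, every array reached at least 11.4, whereas natural logs of a 16-bit scanner could not pass 11.1. RNA was extracted with TRIZOL and ribosomal RNA was reduced, per the labels.

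Only the 8 wildtype columns were used. Of 16661 probe sets from identifier 6700000 on, 989 had several gene symbols and 733 none. Entrez identifiers matched GRCm38.p6 for 14884 of the 14939 with 1 symbol. Means, SDs, the floor and exact permutation tests were computed in Python 3.11.15 with NumPy 2.4.6 and pandas 2.3.3. The floor and the SD count were also run on simulated data, in which all genes but the planted ones had the same noise SD. The real SDs were uneven, so that run cannot show how reliable the SD count is. RMA in its usual form corrects background, equalizes the arrays' distributions and summarizes probes, which narrows differences near the floor. The number of arrays limits the precision.

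The members and gene lists were chosen with earlier results of these data known. Genes were named by rule: the 30 highest means, the 30 highest SDs among genes above the floor, the 20 highest by the smallest SD without 1 embryo, the 10 lowest SDs, genes with separate levels, the 5 highest, 3 lowest and 3 most variable of each list, the 10 highest patterning factors, the tested pairs and Insm1. Genes named beyond it (Klf1, Lhx5 and Flt1 among them) were chosen after their values were seen. Alternatives covered the floor, the scaling, the measure of spread and leaving out each embryo.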

Additional observations from a re-analysis of the deposited data

Results flagged for a closer look

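Of 88 named genes tested, 5 had 1 embryo far from the other 7, where chance gives about 1 in 20. Among all 9898 genes above the floor 494 did (4.99%). The named genes include those picked for the highest SD, Gm16415, Fgf15 and Rpl23 among them. A far embryo raises the SD, so the count among the named genes cannot be read against chance. AY036118 had 10.29 in embryo 7 and at most 9.56 in the others. Gm16415 had 0.78 in embryo 5 and at least 2.95 in the others. Fgf15 had 4.51 in embryo 3 and at most 3.44 in the others. Rpl23 had 2.21 in embryo 7 and at least 3.33 in the others. Egr1, an immediate early gene, had 1.26 in embryo 3 and 0.82 to 0.99 in the others, so its values lay on both sides of the floor.

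Of the 6577 probe sets with identifiers under 6700000, which carry no part of the results above, 3524 had a wildtype mean above the floor (53.6%). Among probe sets within the range used, 442 of 989 with several symbols (44.7%) and 403 of 733 with none (55.0%) did.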

How the results depend on the processing

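No paired analysis was possible because all results come from 1 group and no groups were compared. The number of genes above the floor lay between 8688 (floor at the 99th percentile) and 10808 (90th percentile) over all alternatives, and between 9863 and 9965 when 1 embryo was left out. All 30 most abundant genes stayed in every alternative run. Of the 30 most variable, 24 to 28 stayed when 1 embryo was left out, 27 after centring, 27 after quantile normalization and 21 when ranked by median absolute deviation. The 62 genes with an SD of at least 0.5 became 141 at an SD of at least 0.4, and 59 to 69 when 1 embryo was left out. Leaving out embryos 6 and 7 together was chosen after seeing the data. It left 57 such genes.

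The number of pairs that passed was 0 after centring, 0 after quantile normalization, 0 with Spearman's rho, 2 with residuals on the 75th percentile and 0 to 1 when 1 embryo was left out. With residuals Dlx1 with Dlx2 had r = 0.98 (exact permutation adjusted p = 0.00186). Lmx1a with Rspo3 passed too (r = 0.90, exact permutation adjusted p = 0.00651), and the cause of this added call was not tested. Relations that changed sign had not passed: after centring Reln with Trp73 (0.11) and, against the array percentile, Bnip3 (-0.0307), Csf1r (-0.25), Tbr1 (-0.37) and Reln (0.0131). After quantile normalization these were Reln with Trp73 (0.11) and, against the percentile, Eomes (-0.27) and Tbr1 (-0.0317). With Spearman's rho they were Csf1r with Cx3cr1 (0.0719) and Hbb-y against the percentile (0.0238), and with residuals Csf1r with Cx3cr1 (0.0209) and Pax6 with Sox2 (-0.0823). Without embryos 6 and 7 they were Pax6 with Sox2 (-0.0718), Col1a2 (0.59) and Top2a (-0.0823) against the percentile. When 1 embryo was left out, r ranged from -0.60 to 0.20 for Csf1r with Cx3cr1 and, against the percentile, from -0.53 to 0.38 for Hbb-y, -0.20 to 0.11 for Fos and -0.41 to 0.34 for Col1a2.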

Other observations

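Imprinted genes, which are expressed from 1 parental allele, had 15 of 16 measured members above the floor and a median of 4.71. The highest were Grb10 (8.72), an adaptor that restrains growth factor signalling, Ndn (7.93) and Plagl1 (7.48), and Phlda2, a placental growth gene, lay below the floor at 0.35. The S phase list had a median of 6.81, led by Rrm1 (8.37), a subunit of ribonucleotide reductase, and the G2 and M phase list a median of 6.67, led by Top2a (8.11), the topoisomerase of dividing cells.

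By chromosome, the share of genes above the floor lay between 56.9% on chromosome 6 and 77.1% on chromosome 12.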
